A study of Mus musculus with 6 samples.

Results

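The signal of 6 genes whose products switch off the light response of rods was followed in mouse retina at postnatal day 21: Rgs9, Rgs9bp, Gnb5, Grk1, Sag and Rcvrn. Every probe set annotated to these genes was taken, which gave 9 of the 45037 non-control probe sets of the array and 6 of the 18193 genes named on it. Rgs9 had 3 probe sets, Gnb5 had 2 and the other genes had 1 each. All 9 passed the filter on low signal, so none of them is missing from the tests below.

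The study set 3 wildtype samples of C57Bl/6 background against 3 samples labelled ERRβ -/- knockout of C57Bl/6 x Sv129 background. ERRβ is an orphan nuclear receptor, encoded by Esrrb, and the comparison asks which retinal transcripts differ when it is targeted, in a study of its part in rod survival. Each sample was the total RNA of 2 pooled retinas from mice of mixed sex, kept on standard chow and a daily light and dark cycle, and each was hybridised to a single array. Genotype and strain background differ together and cannot be told apart in any difference below. The labels do not say which part of Esrrb was deleted, in which cells, or whether the pools came from separate litters, so the p-values below reflect only how these samples vary among themselves, which may be technical.

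In the rod, light activates the receptor rhodopsin, which in turn activates the G protein transducin. The phosphodiesterase that transducin switches on lowers cyclic GMP and closes the cation channel of the outer segment. Recovery needs each of these steps to be ended. GRK1 is a receptor kinase and SAG is the rod arrestin, which act in turn on rhodopsin at the first step. Recoverin (RCVRN) is a calcium sensor that restrains GRK1 in the dark. Transducin is ended by a complex of the GTPase activating protein RGS9 with the G protein β subunit GNB5, which RGS9BP, also called R9AP, anchors to the disc membrane. In humans, loss of RGS9 or RGS9BP slows recovery from light (bradyopsia), and loss of GRK1 or SAG causes Oguchi disease, a stationary night blindness.

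The deposited signals carried 2 scales. A mean that leaves out the 2% dimmest and 2% brightest probe sets lay near 500 for replicates 1 and 2 of either group, called the first batch below, and near 150 for replicate 3 of either group, the second batch. The first batch thus sets 2 arrays against 2, and the second sets 1 against 1 and allows no test by itself. Array medians were 114 to 135 in the first batch and 57.3 to 61.5 in the second. Log2 fold changes are labelled knockout minus wildtype over all 6 arrays with the batch as a block, with the standard error (SE) and 95% interval of a limma fit (n = 3 arrays a group) and Benjamini-Hochberg adjustment over all 27022 kept probe sets. A probe set was called at an adjusted p under 0.05. Wildtype replicates 1, 2 and 3 read 2951, 2934 and 1771 at the brightest Esrrb probe set, and the arrays labelled knockout 3435, 4012 and 2397. It was therefore not lower in them, so Esrrb does not check the labels and the term "labelled knockout" is kept throughout. Of 7 rod markers, 6 were measured and all 6 read above the array median in every array. The 6 genes lie on other chromosomes than Esrrb.

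Rgs9bp was the single shutoff gene called. Its signal fell to 66.7% of wildtype, while Grk1 at 78.5%, the brighter Gnb5 probe set at 79.7%, Sag at 91.9% and Rcvrn at 98.7% did not pass. The 3 probe sets of Rgs9 had log2 fold changes from -0.77 to 0.067 and did not pass. Of the 9 probe sets, 1 was called lower and 0 higher, where 1.22% of all kept probe sets were called lower and 1.04% higher. At an unadjusted p under 0.05, 4 of the 9 were lower and 0 higher in limma, where 11.1% of all kept probe sets were lower and 9.33% higher. Over the 6 genes, each represented by its brightest probe set, the median log2 fold change was -0.34, against 0.020 over the 12536 genes tested. The first batch had a median of -0.49 and the second one of 0.012.

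**Figure D1:**
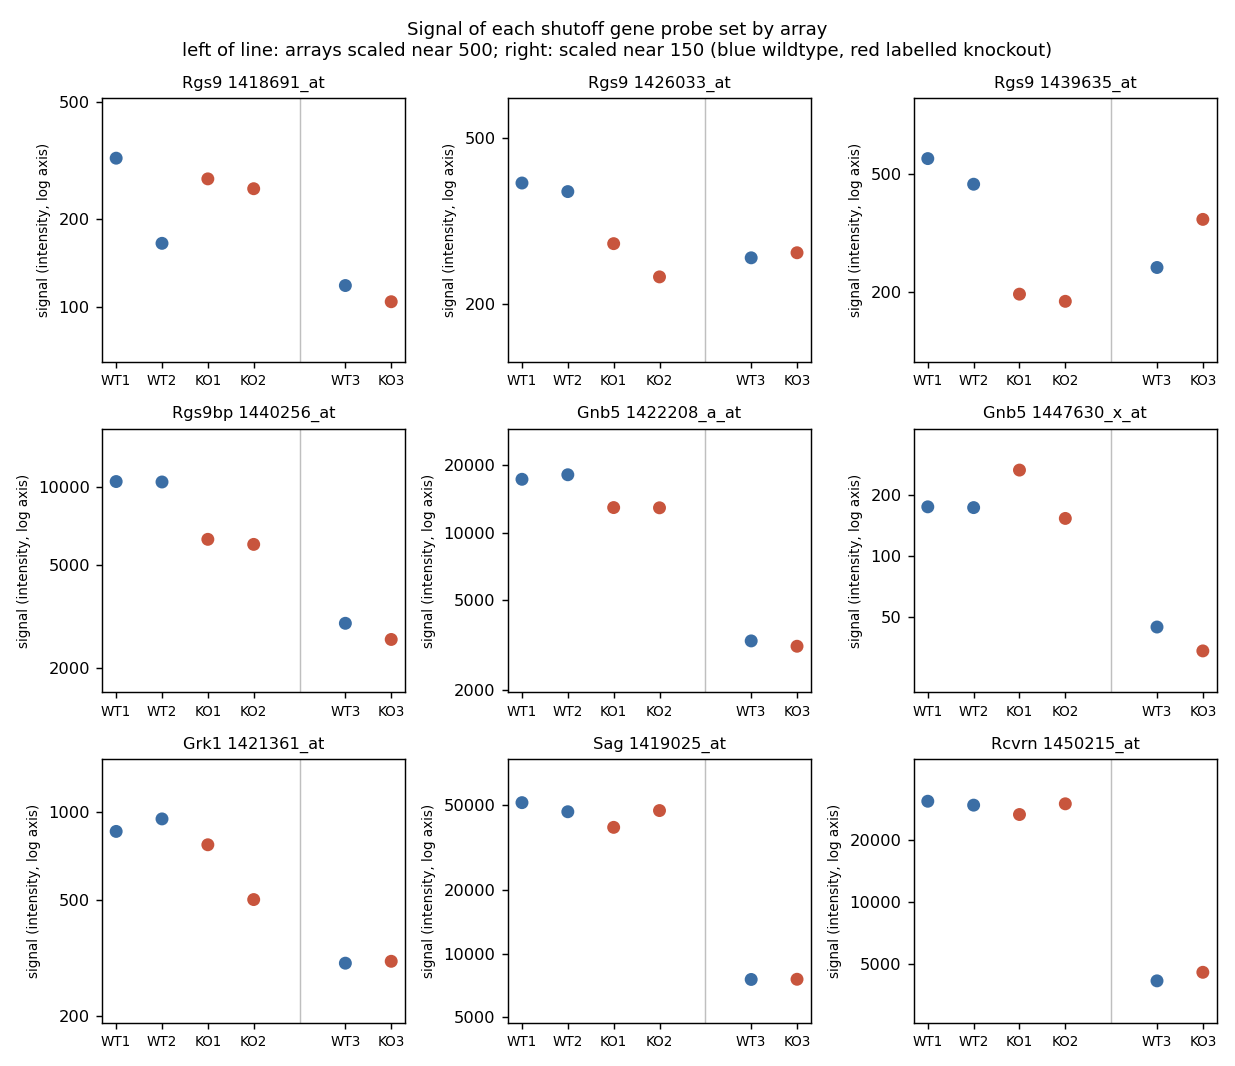
Signal (intensity, log axis) of each of the 9 probe sets in each of the 6 arrays, wildtype (WT) in blue and labelled knockout (KO) in red, with replicates 1 and 2 (scaled near 500) left of the line and replicate 3 (scaled near 150) right of it. Rgs9bp and the brighter Gnb5 probe set were lower in every labelled knockout array than in the wildtype arrays of their batch. The same held for 17.2% of all kept probe sets. Sag and Rcvrn overlapped between groups.

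Rgs9bp, the membrane anchor of the RGS9 complex, was measured by probe set 1440256_at. In the first batch the wildtype arrays read 10508 and 10467, and the labelled knockout arrays 6282 and 6006. In the second batch wildtype read 2975 and labelled knockout 2576. The labelled knockout arrays were lower than the wildtype arrays in both batches, with no overlap, as were 17.2% of all kept probe sets. In the first batch the signal was 10487 ± 29.3 in wildtype and 6144 ± 195 in labelled knockout (SD, n = 2 each), so the difference was many times the spread between replicates. Over all 6 arrays the log2 fold change was -0.58 ± 0.11 (SE; 95% interval -0.83 to -0.34; adjusted p = 0.0306). Signal was 58.6% of wildtype in the first batch and 86.6% in the second. The test of that difference between batches did not pass (0.56 on the log2 scale, adjusted p = 0.0547), where 1.19% of all kept probe sets passed. The call was lost with the replicate number as a block (adjusted p = 0.0775), without the filter on low signal (0.0506), without a variance trend (0.251) and without a batch term (1.00). It was also lost when any single array of the first batch was left out, with adjusted p from 0.140 without labelled knockout replicate 1 to 0.212 without wildtype replicate 2 (0.180 without wildtype replicate 1 and 0.165 without labelled knockout replicate 2), and its direction held in each of these fits.

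Some other measures moved with the groups in the same arrays. For the marker counts below, 1.48% of all genes tested were called lower and 1.28% higher. At an unadjusted p under 0.05 in limma, 9.84% were lower and 11.5% higher. All 7 lens markers were called higher, and their summed signal was 1667 and 1945 in the wildtype arrays of the first batch against 36874 and 42113 in its labelled knockout arrays, and 4586 against 24280 in the second. Of 5 measured pigment epithelium markers 4 were called higher, with sums of 10603 and 11814 against 17140 and 17501 in the first batch and of 408 against 838 in the second. No lens or pigment marker was at 0 in any array, and the lowest read 6.00 and 17.7. For the 6 rod markers (0 called in limma, 4 lower and 0 higher at an unadjusted p under 0.05) the sums were 179725 and 182914 against 145135 and 161476 in the first batch and 25234 against 24500 in the second, with a median log2 fold change of -0.25. Markers of cones (5 measured), bipolar cells (5), Müller glia (5), amacrine and ganglion cells (6) and microglia (4) had 0 called. Their median log2 fold changes were 0.042, 0.16, 0.13, 0.045 and 0.12. At an unadjusted p under 0.05 in limma, 0, 2, 0, 1 and 1 of them were lower and 1, 2, 1, 1 and 0 higher. The ratio of 3′ to 5′ Actb signal, a sign of RNA quality, in replicates 1, 2 and 3 was 1.82, 1.66 and 1.67 with the knockout label against 1.83, 1.89 and 2.32 in wildtype. The same ratio for Gapdh was 0.731, 0.719 and 0.731 against 0.727, 0.712 and 0.779, and overlapped between the groups in the first batch. The part of these differences in the results on the shutoff genes was not tested. In whole retina, fewer rods, less RNA per rod and a change in other cells that hold the same transcripts cannot be told apart.

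Gnb5, the β subunit that RGS9 needs to be stable, had a bright probe set that detects several of its transcripts (1422208_a_at). The wildtype arrays of the first batch read 17233 and 18050, and its labelled knockout arrays 12911 and 12878. In the second batch wildtype read 3307 and labelled knockout 3131. Again the labelled knockout arrays lay below the wildtype arrays of their batch, by little in the second. The log2 fold change over all 6 arrays was -0.33 ± 0.087 (95% interval -0.52 to -0.13) and did not pass (adjusted p = 0.0850). A fit of the first batch alone gave -0.45 ± 0.066 (limma, adjusted p = 0.00156), and the second batch had -0.08. The interaction of group and batch did not pass for it (0.37, adjusted p = 0.160).

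The other Gnb5 probe set, 1447630_x_at, did not share this pattern. Its suffix marks probes that may bind other transcripts. Wildtype replicates 1, 2 and 3 read 176, 174 and 44.8, and the labelled knockout replicates 267, 154 and 34.1. The groups overlapped in the first batch, and both arrays of the second read under their array median. Its log2 fold change of 0.011 ± 0.28 (adjusted p = 0.986) had a 95% interval from -0.61 to 0.63, which holds the value of the brighter probe set and therefore does not separate them.

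Rgs9, the GTPase activating protein itself, was read by 3 probe sets of modest signal. Over all 6 arrays 1439635_at and 1426033_at were below 0, and 1418691_at lay within its standard error of 0. At probe set 1439635_at the wildtype arrays of the first batch read 566 and 463, and its labelled knockout arrays 197 and 186. In the second batch wildtype read 242 and labelled knockout 352, so the order of the groups turned between batches. Its log2 fold change was -1.42 ± 0.19 in the first batch alone (adjusted p = 0.000826) and 0.54 in the second. The difference between batches, 1.96 on the log2 scale, passed (limma interaction, adjusted p = 0.0125). The value over all 6 arrays, -0.77 ± 0.33 (adjusted p = 0.232), is an average of these opposite values.

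At probe set 1426033_at of Rgs9 the first batch read 390 and 372 in its wildtype arrays and 279 and 232 in its labelled knockout arrays, and the second read 258 against 265. It was lower in the labelled knockout arrays of the first batch without overlap, and nearly level in the second. Its log2 fold change was -0.38 ± 0.17 (95% interval -0.75 to -0.00089; adjusted p = 0.243). Leaving out wildtype or labelled knockout replicate 3, which leaves the first batch to decide, gave -0.58 and adjusted p = 0.0460 and 0.0461, while the fit of the first batch alone gave the same value and did not pass (adjusted p = 0.0613).

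At probe set 1418691_at of Rgs9 the wildtype arrays of the first batch read 321 and 165, and the labelled knockout arrays lay between them at 273 and 253. In the second batch wildtype read 118 and labelled knockout 104. Its log2 fold change was 0.067 ± 0.25 (adjusted p = 0.909), with a 95% interval from -0.49 to 0.62. That interval holds the -0.38 of 1426033_at and therefore does not separate them. It also overlaps the 95% interval of 1439635_at, -1.51 to -0.023. The differences between the Rgs9 probe sets were not tested. No Rgs9 probe set passed over all 6 arrays, and the order of the groups turned between batches at 1439635_at. No direction is therefore given for Rgs9. The sources used here give a reference sequence for each probe set, but not every transcript of the gene that it detects. Where genes are taken by their brightest probe set, 1439635_at stands for Rgs9.

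**Figure D2:**
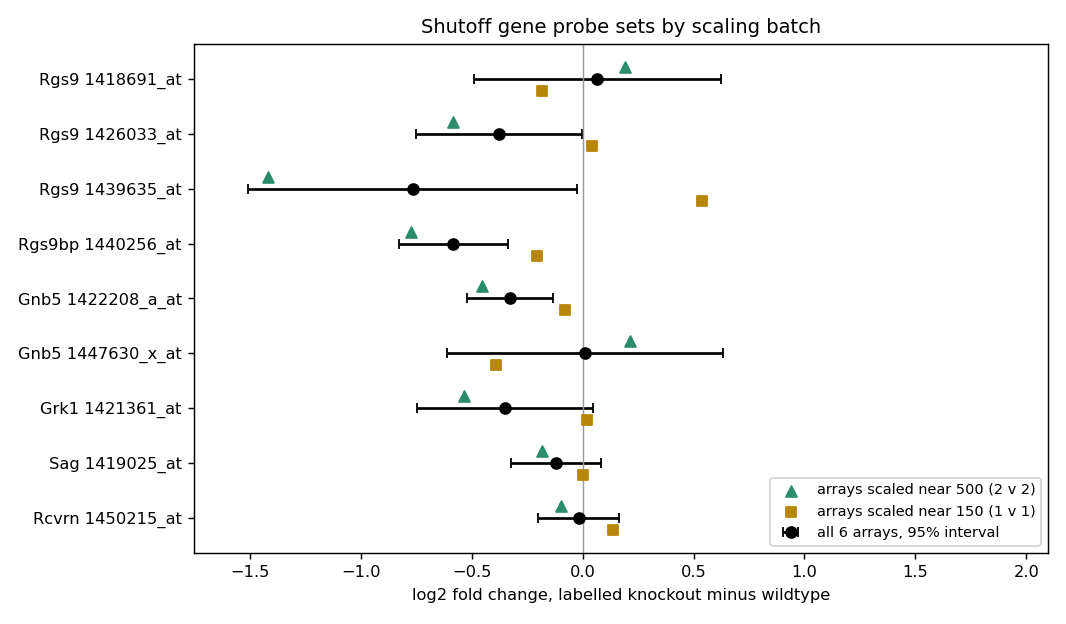
Log2 fold change (labelled knockout minus wildtype, x axis) of each probe set over all 6 arrays with its 95% interval (circles), and in the arrays scaled near 500 (triangles) and near 150 (squares) by themselves. Only the Rgs9bp and the brighter Gnb5 probe sets were below 0 in both batches with no overlap of groups. Of all kept probe sets, 17.2% were lower in this way, so the count is near the background. Rgs9 1439635_at ran from -1.42 to 0.54.

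Grk1, the receptor kinase of the first shutoff step, read 858 and 947 in the wildtype arrays of the first batch and 772 and 501 in its labelled knockout arrays. The second batch read 304 in wildtype and 308 in labelled knockout. The labelled knockout arrays were lower in the first batch without overlap, though they differed among themselves (637 ± 192, SD, n = 2), and the second batch showed no drop. The log2 fold change was -0.35 ± 0.18 (95% interval -0.75 to 0.048; adjusted p = 0.303). It was -0.12 without labelled knockout replicate 2, so much of the value rested on that array.

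Sag, which encodes rod arrestin and whose probe set ranked among the 5 brightest in each array, read 51347 and 46520 in the wildtype arrays of the first batch and 39278 and 47125 in its labelled knockout arrays. Its second batch values were 7551 in wildtype and 7566 in labelled knockout. The groups overlapped in the first batch and were level in the second. Its log2 fold change of -0.12 ± 0.090 did not pass (adjusted p = 0.485), and the 95% interval of -0.32 to 0.082 leaves room for a drop to 79.8% of wildtype. With quantile normalization the sign turned, to 0.082 over all arrays and 0.051 within batches.

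Rcvrn, the calcium sensor that holds GRK1 back, read 30818 and 29498 in the wildtype arrays of the first batch and 26559 and 29943 in its labelled knockout arrays. The second batch read 4120 in wildtype and 4534 in labelled knockout. The groups overlapped in the first batch, and in the second the labelled knockout array was the higher. The log2 fold change was -0.02 ± 0.082 (limma, 95% interval -0.20 to 0.17, adjusted p = 0.923). A change to under 87.0% or over 112% of wildtype lies outside this interval, which holds only for the fit without further normalization. Its sign also turned with quantile normalization, to 0.072 over all arrays and 0.063 within batches.

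In the first batch, 5 of the 9 probe sets (Rgs9 1426033_at and 1439635_at, Rgs9bp, Gnb5 1422208_a_at and Grk1) were lower in both labelled knockout arrays than in both wildtype arrays, where 31.7% of all kept probe sets were, and 0 of the 9 were higher, where 26.9% were. In a limma fit of this batch alone 3 of the 9 were called lower (Rgs9 1439635_at, Rgs9bp and Gnb5 1422208_a_at) and 0 higher, where 7.7% of all kept probe sets were called lower and 5.94% higher; at an unadjusted p under 0.05, 5 were lower and 0 higher, where 16.1% and 13.1% of all kept probe sets were. Adding the second batch left 2 of 9 lower in every labelled knockout array of both batches, where 17.2% of all kept probe sets were, and 0 higher, where 16.4% were. That count of 2 is near the background. With each gene taken by its brightest probe set, 6 of the 6 log2 fold changes were negative in the first batch and 2 in the second, where 47.0% and 47.5% of all genes tested were. In the first batch the other probe sets were not all negative, with 0.19 at Rgs9 1418691_at and 0.21 at Gnb5 1447630_x_at.

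**Figure D3:**
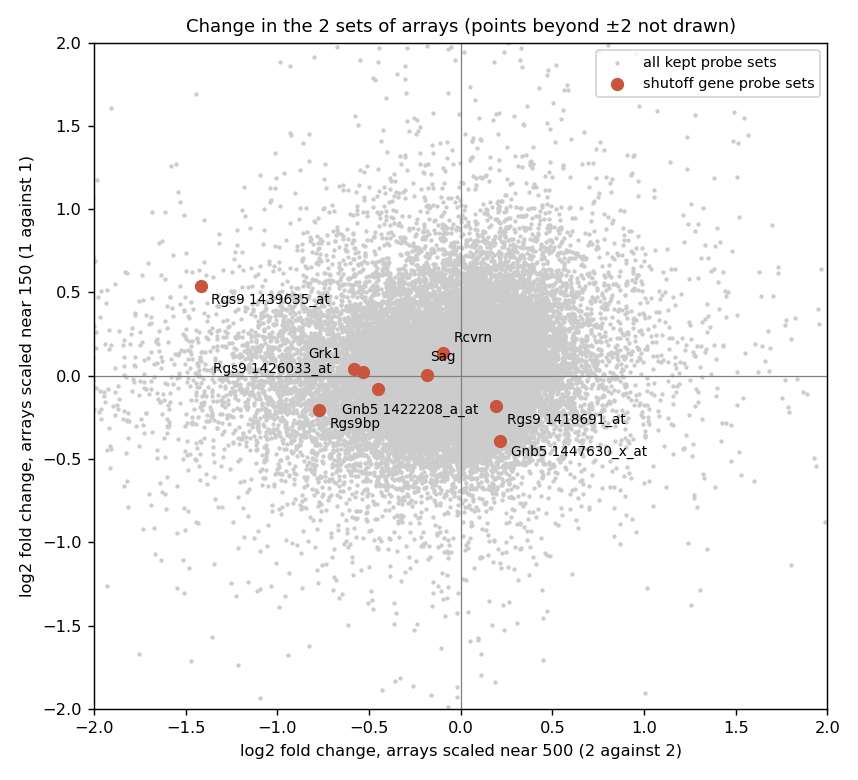
Log2 fold change (labelled knockout minus wildtype) in the arrays scaled near 500 (x axis, 2 against 2 arrays) and near 150 (y axis, 1 against 1), for all 27022 kept probe sets in grey (those beyond the axes are not drawn) and the 9 shutoff gene probe sets in red. Most red points lie left of 0 on the x axis and close to 0 on the y axis, with Rgs9bp at -0.77 and -0.21.

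The 2 batches also differed in how strongly each probe set read. From the second batch to the first the wildtype signal was 6.48 times higher for Sag, 7.32 times for Rcvrn and 5.33 times for Gnb5 1422208_a_at, but 3.53 times for Rgs9bp, 2.97 times for Grk1 and 1.48 to 2.12 times for the 3 Rgs9 probe sets, where the ratio of the 2 scales is 3.33. Over all kept probe sets the median of this ratio, taken over both groups, was 2.97, and over the brightest 1% of them it was 6.40. Sag was the brightest of all non-control probe sets in labelled knockout replicate 3. The median size of the log2 fold change was 0.24 in the first and 0.20 in the second batch over all kept probe sets, and 0.13 and 0.12 over the brightest 1%.

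Promoter sequence from RefSeq (GRCm38.p6) was held for 4 of the 6 genes (Rgs9, Gnb5, Grk1 and Sag) in the table used. The 250 bases before the transcription start were searched on both strands for the ERR response element TNAAGGTCA, for its core AAGGTCA, which lies within it, and for TAATCC, the core bound by the photoreceptor factor Crx. These motifs were chosen with the sequences in view. They are shown for Gnb5 and Sag because both hold the ERR core and the Crx core; neither gene was called. Capitals mark AAGGTCA or TAATCC or their reverse complements TGACCTT and GGATTA. The Gnb5 window is chr9:75306038-75306287 and the Sag window chr1:87803430-87803679, both on the plus strand and written 5′ to 3′, and the Sag window starts inside the annotated span of the gene.
Gnb5: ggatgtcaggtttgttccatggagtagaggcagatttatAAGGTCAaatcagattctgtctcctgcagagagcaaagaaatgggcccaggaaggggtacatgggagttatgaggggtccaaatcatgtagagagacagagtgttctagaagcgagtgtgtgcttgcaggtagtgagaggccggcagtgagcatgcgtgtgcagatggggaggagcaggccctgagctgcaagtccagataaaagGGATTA
Sag: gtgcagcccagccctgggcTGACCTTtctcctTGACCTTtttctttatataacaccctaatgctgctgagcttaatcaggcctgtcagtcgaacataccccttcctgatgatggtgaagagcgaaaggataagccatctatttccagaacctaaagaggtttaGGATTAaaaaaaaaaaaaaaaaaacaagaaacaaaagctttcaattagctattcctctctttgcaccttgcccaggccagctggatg
Gnb5 held 1 ERR core, 205 to 211 bases before the start, and 1 Crx core that ends at the base before it. Sag held 2 ERR cores, at 212 to 218 and 225 to 231 bases, and 1 Crx core at 82 to 87 bases before the start. None of the 4 windows held the full element TNAAGGTCA, and those of Rgs9 and Grk1 held none of the 3 motifs. Of 32851 promoter windows of the same length, 1.14% held TNAAGGTCA, 4.08% AAGGTCA and 6.25% TAATCC. A match describes letters and is not evidence of binding.

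Genes of the rest of the rod cascade were set beside the shutoff genes. Of 10 activation genes 9 were measured, which run from transducin to the channel, with the exchanger gene Slc24a1 added. Of these 9, 1 was called lower (Slc24a1) and 1 higher (Cngb1), and 7 did not pass. Of genes tested, 1.48% were called lower and 1.28% higher. At an unadjusted p under 0.05 in limma, 6 of these 9 were lower and 1 higher, where 9.84% and 11.5% of genes tested were. The median log2 fold change of these genes was -0.34, with -0.37 in the first batch and 0.010 in the second, beside the -0.34, -0.49 and 0.012 of the shutoff genes. Slc24a1, the rod sodium, calcium and potassium exchanger, fell (-0.88 ± 0.13, adjusted p = 0.00945) and Cngb1, the β subunit of the rod channel, rose (0.34 ± 0.070, adjusted p = 0.0428). The transducin α subunit gene Gnat1, whose product the RGS9 complex acts on, had -0.25 (adjusted p = 0.182), and Pde6b, a catalytic subunit of phosphodiesterase, -0.01 (adjusted p = 0.925).

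Among 8 measured of 12 genes of calcium feedback and of cascade adaptors, 3 were called lower and 0 higher, where 1.48% and 1.28% of genes tested were. At an unadjusted p under 0.05 in limma, 4 were lower and 1 higher, where 9.84% and 11.5% of genes tested were. The median log2 fold change was -0.12. Guca1a and Guca1b encode calcium sensors that act on guanylate cyclase, as recoverin acts on GRK1. Guca1a read 20704 and 21662 in the wildtype arrays of the first batch and 4820 and 4968 in its labelled knockout arrays. In the second batch wildtype read 2810 and labelled knockout 1176. It fell by 1.83 on the log2 scale (SE 0.15, adjusted p = 0.000449), and Guca1b fell by 0.68 (SE 0.086, adjusted p = 0.00549), each in both batches. Recoverin belongs to the same family of calcium sensors and had the -0.02 given above; the difference between the genes was not tested. The third member called was Aipl1, a chaperone of phosphodiesterase (-0.73, adjusted p = 0.00225).

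Paralogs of the shutoff proteins, listed together with the receptor genes Gpr158 and Gpr179, showed no call. These receptor genes are not paralogs of the shutoff proteins, and Gpr179 was not measured. The list takes in genes of cones, bipolar cells and other neurons, and also Gnb1, the rod transducin β subunit gene, which is counted among the activation genes too (-0.34, adjusted p = 0.134). Of 24 entries 22 were measured, with 0 called in either direction in limma, where 1.48% of genes tested were called lower and 1.28% higher. At an unadjusted p under 0.05, 2 were lower and 4 higher, where 9.84% and 11.5% of genes tested were. The median log2 fold change was 0.09. Rgs7 and Rgs11, the GTPase activating proteins of ON bipolar cells that also pair with GNB5, had -0.07 (adjusted p = 0.791) and -0.35 (adjusted p = 0.170). Rgs7bp, the paralog of Rgs9bp, read 1679, 1585 and 245 in wildtype replicates 1, 2 and 3 and 1831, 1563 and 274 in the labelled knockout replicates. The groups overlapped in the first batch, and its log2 fold change was 0.09 (adjusted p = 0.654). Arr3, the cone arrestin, had 0.07 (adjusted p = 0.675). Of 9 measured cone cascade genes, which include Arr3, 0 were called (0 lower and 2 higher at an unadjusted p under 0.05), with a median of 0.04. The same shares of genes tested apply to these counts.

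**Figure D4:**
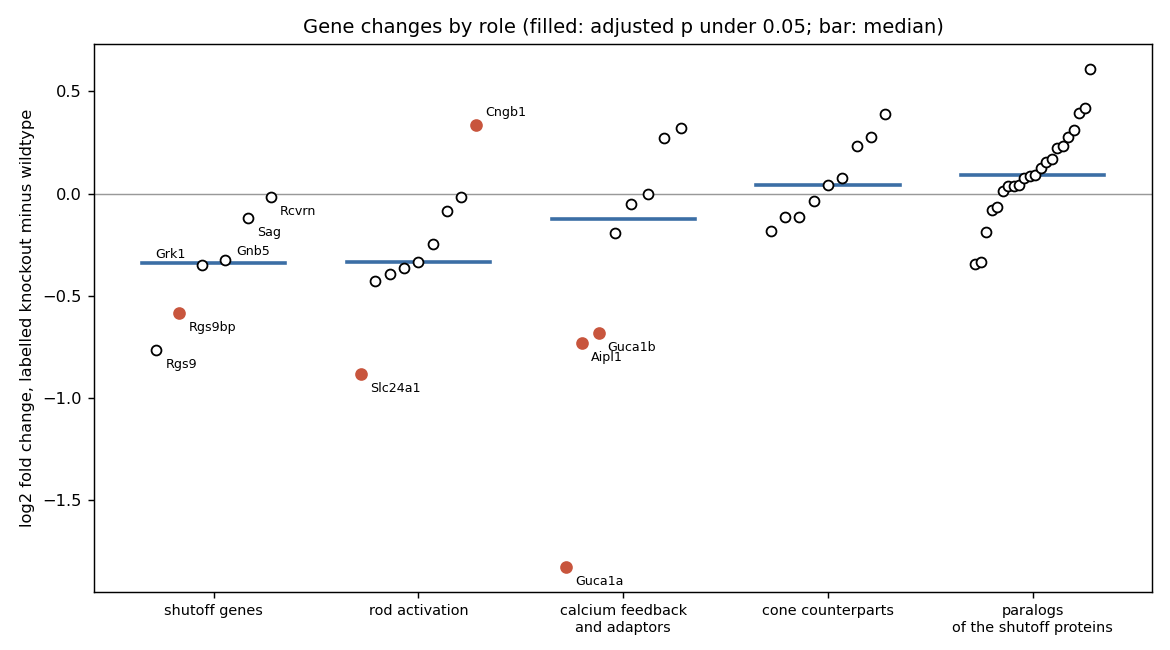
Log2 fold change (labelled knockout minus wildtype, y axis) of each gene's brightest probe set, grouped by role, with called genes filled in red and the median of each list as a blue bar. Rgs9bp is the filled point among the shutoff genes, at -0.58. The medians run from -0.34 for the shutoff and activation genes to 0.09 for the paralog list, which also holds Gpr158. No set was tested.

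The genes most like Rgs9bp were found from the 6 log2 signals after the mean of each batch was taken away, by the smallest root mean square difference. Ero1a, an oxidase of the endoplasmic reticulum, was nearest (0.011 log2 units), followed by Egfr, a growth factor receptor gene (0.028), and the noncoding RNA gene Oip5os1 (0.031), where the median over all named probe sets was 0.36. Ero1a had log2 fold changes of -0.76 and -0.21 in the 2 batches, against -0.77 and -0.21 for Rgs9bp. Of these 3 probe sets Oip5os1 was called (adjusted p = 0.0208), while Ero1a (0.0642) and Egfr (0.133) were not. Among the shutoff genes Gnb5 was nearest to Rgs9bp (0.14) and Rgs9 farthest (0.35), and the closest pair was Rcvrn with Sag (0.063). This is a description over 6 arrays and 27022 probe sets, with no test.

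**Figure D5:**
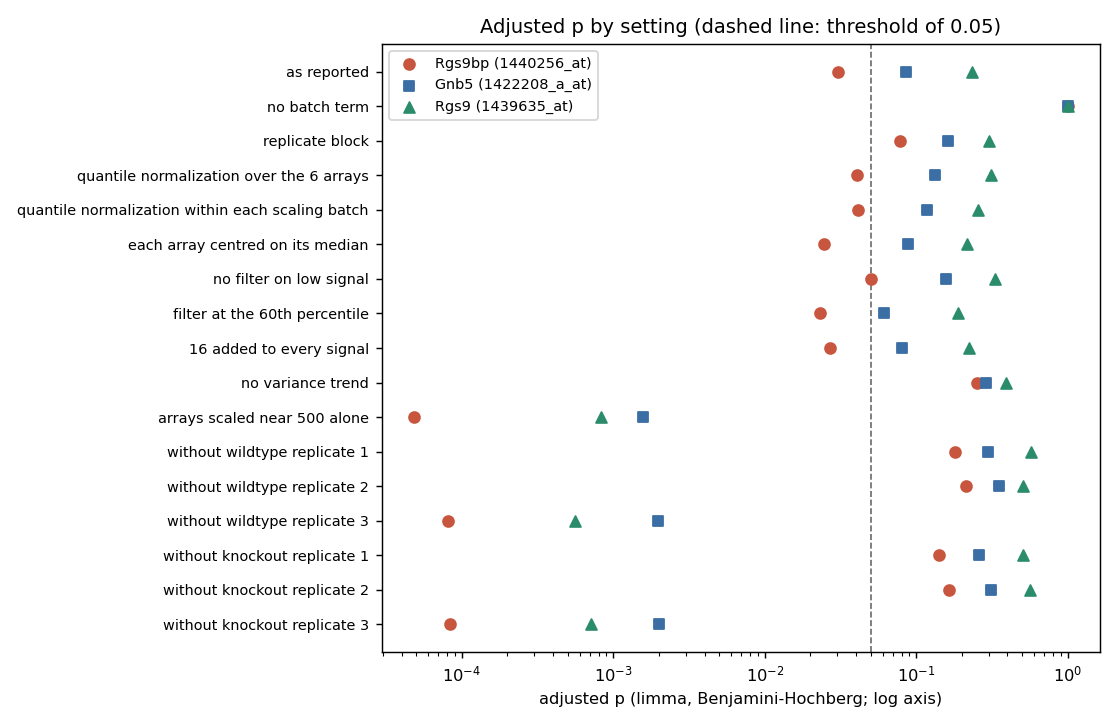
Adjusted p (limma, x axis, log scale) of Rgs9bp, of the brighter Gnb5 probe set and of Rgs9 1439635_at under each tested setting, with the threshold of 0.05 dashed. Rgs9bp lies at 0.0306 as reported and is past the threshold in 8 of 16 alternatives, and the other genes pass only where the first batch decides alone.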

How the data were processed

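Total RNA was amplified in a single round with an oligo dT primer, labelled with biotin and hybridised to Affymetrix arrays, per the labels' protocols. The table deposited by the authors gives a linear intensity for each probe set on each array. GCOS 1.4 and MAS5 are named in the submitters' processing notes, without role or order. The 2 array scales were read from the values. Arrays carry no read depth, and the number of arrays limits precision.

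From these values log2 was taken with no further normalization, 64 control probe sets were left out, and 27022 probe sets at or above the 40th percentile of mean log2 signal (a signal of 54.5) were kept. The test was that of limma 3.58.1, run in R 4.3.3 (two-sided, variance trend, scaling batch as a block), and the fit was tested on simulated data. Names came from GEO's platform annotation (34945 probe sets with 1 symbol, 932 with several, 9160 with none). For gene counts, lists and nearest genes, a probe set with 1 symbol took the RefSeq symbol of its gene identifier where there was one. The text names every probe set of the 6 genes and, of the lists, called genes, fixed partners and the 3 nearest genes of each called member. The members, lists and the batch block were chosen with earlier results of these data known. Equal replicate numbers of the 2 groups correlated at 0.570, 0.670 and 0.843 in their deviations from the group means, but number 1 with number 2 across the groups gave 0.607 and 0.627. Arrays of different scales correlated negatively. Taken over the first batch by itself, the correlation for equal numbers was 0.0153. The correlations over all arrays thus follow the 2 scales and do not show that equal numbers are pairs. Alternatives changed the batch term, the replicate block, normalization, filter, added signal, variance trend and arrays.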

Additional observations from a re-analysis of the deposited data

How the results depend on the processing

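The count of probe sets called (609) was 0 without a batch term (118 at an unadjusted p under 0.05 in limma), 200 with a replicate block, 405 without a filter, 955 with the filter at the 60th percentile, 19 without a variance trend and 3687 in the arrays scaled near 500 alone, and 77 to 3710 when 1 array was left out. Of the 9 shutoff gene probe sets, the 1 called lower became 0 without a batch term (0 at an unadjusted p under 0.05), with the replicate block (2), without a filter (4) and without a variance trend (2), became 3 in the arrays scaled near 500 alone, and ran from 0 to 4 when 1 array was left out. The count called higher was 0 under all 16 tested alternatives (0 at an unadjusted p under 0.05 in each). The cause of these shifts was not tested beyond the loss of arrays. The median over the 6 genes was 0.012 in the arrays scaled near 150, and -0.49 to -0.23 when 1 array was left out. No probe set of the 6 genes turned its direction while called. The sign turned, uncalled, for Sag (0.082) and Rcvrn (0.072) with quantile normalization over the 6 arrays and for Sag (0.051) and Rcvrn (0.063) within batches, and when 1 array was left out Rgs9 1418691_at ran from -0.24 to 0.31, Gnb5 1447630_x_at from -0.27 to 0.21 and Rcvrn from -0.096 to 0.054. With the replicate block, which leaves fewer residual degrees of freedom, Rgs9bp lost its call and no other shutoff gene call changed. Gnb5 1447630_x_at was not tested at the 60th percentile filter, which it does not pass. The arrays scaled near 150 hold 1 sample a group and gave values without a test. Their sign was opposite to that over all 6 arrays for Rgs9 1418691_at (-0.18), 1426033_at (0.040) and 1439635_at (0.54). It was also opposite for Gnb5 1447630_x_at (-0.39), Grk1 (0.021), Sag (0.0029) and Rcvrn (0.14). Rgs9bp (-0.21) and Gnb5 1422208_a_at (-0.079) kept their sign.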

Other observations

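Among the rod markers, the Prph2 probe set read 14114 and 14987 in the wildtype arrays of the first batch and 8707 and 10748 in its labelled knockout arrays, but 89.4 (wildtype) and 83.5 (labelled knockout) in the second batch. Prph2 encodes a structural protein of the outer segment disc rim. This gap between the 2 sets of arrays lies far beyond the scale ratio of 3.33, and its cause was not tested.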
